A study of Oryctolagus cuniculus with 12 samples.

Results

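The 9 genes described here move water, bicarbonate, sodium, potassium and chloride across the cell layers of the cornea. They were chosen by name from the 29076 genes listed for rabbit cornea. AQP5, AQP3 and AQP1 are water channels. SLC12A2 is the sodium-potassium-chloride cotransporter NKCC1. SLC4A11 and SLC4A4 are members of the bicarbonate transporter family, CA2 is a cytosolic carbonic anhydrase, and ATP1B1 and ATP1B3 are beta subunits of the sodium pump. All 9 were listed under these symbols, and all 9 were among the 18171 genes that passed the filter on low counts.

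The cornea stays clear because its stroma is kept thin and partly dehydrated. The endothelium on its inner face pumps ions out of the stroma with the sodium pump, bicarbonate transport and carbonic anhydrase, and water follows. The epithelium on its outer face is a barrier and secretes chloride into the tears. In mammalian corneas AQP5 and AQP3 are known as epithelial water channels, whereas AQP1 is known from the endothelium and the stromal keratocytes.

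RNA was sequenced from corneas of rabbits, 6 months old and fed a normal diet, in 12 libraries. There were 3 libraries each in groups labelled blue_light, GL, RL and control. The same treatment text, an exposure of 6 weeks, stands on every library including the controls, GL and RL are not spelled out, and no wavelength, intensity, strain or sex is named. The labels name neither animals nor eyes, so p-values measure only the spread between these libraries, which may be technical. Levels are the deposited FPKM, fragments per kilobase of transcript and per M (mega) fragments mapped. Differences between groups are log2 differences in counts from 1 edgeR fit of all 12 libraries, with adjusted p-values over all 18171 genes.

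The libraries were corneal in their markers. KRT12 and KRT3, the paired keratins of the corneal epithelium, averaged 11178 and 2425 FPKM. DCN and ALDH1A1, abundant in keratocytes, averaged 7229 and 3432 FPKM. COL8A2 and COL8A1, collagens of the membrane under the corneal endothelium, averaged 362 and 350 FPKM, whereas the endothelial marker ZP4 was listed at 0 everywhere. Total counts ran from 40.9 to 64.7 M per library, and the GL libraries (61.6 to 64.7 M) lay above the controls (44.4 to 56.9 M). A set of 5 libraries, all of blue_light with RL replicate 1 and control replicate 1, listed 2389 to 2563 genes at counts of 1 to 20, against 767 to 1461 in the other 7. Lens transcripts summed to 1916 to 17397 FPKM in blue_light, 652 to 3480 in GL, 422 to 3233 in RL and 5913 to 9180 in control. Retinal transcripts were highest in blue_light replicate 1, GL replicate 3 and control replicate 2, with sums of 98.2, 279 and 58.8 FPKM. The remaining marker lists summed to 301 to 558 FPKM for basal epithelium and limbus and 388 to 613 for conjunctiva and goblet cells. They summed to 54.2 to 109 FPKM for pigment epithelium and melanocytes, 15.3 to 40.9 for leukocytes, 14.2 to 29.5 for vascular endothelium, 6.92 to 26.4 for ciliary epithelium and at most 2.55 for erythroid cells. Of the markers of red cells, which carry both AQP1 and CA2, SLC4A1 was listed at 0 in all 12 libraries.

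The 9 genes spanned about 2 orders of magnitude per length. AQP5 averaged 1462 FPKM over the 12 libraries and was the 38th most abundant of the 18171 genes tested. AQP1 averaged 1128 FPKM (place 67), AQP3 286 (place 242) and SLC4A11 141 (place 451). CA2 averaged 116 FPKM (place 558), ATP1B3 87.1 (place 750) and ATP1B1 65.6 (place 1050). SLC4A4 at 18.3 FPKM (place 4337) and SLC12A2 at 13.5 (place 5635) were far lower. Several neighbours in this order exchanged places between libraries. AQP5 exceeded AQP1 in 10 of 12 libraries, AQP3 exceeded SLC4A11 in 11, SLC4A11 exceeded CA2 in 9 and CA2 exceeded ATP1B3 in 10. ATP1B3 exceeded ATP1B1 in 11 libraries and SLC4A4 exceeded SLC12A2 in 10. AQP1 exceeded AQP3 in all 12, and ATP1B1 exceeded SLC4A4 in all 12. ATP1B3 was the steadiest of the 9, with a coefficient of variation of 11.5% over the libraries, and SLC4A11 the most variable with 29.5%.

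**Figure D1:**
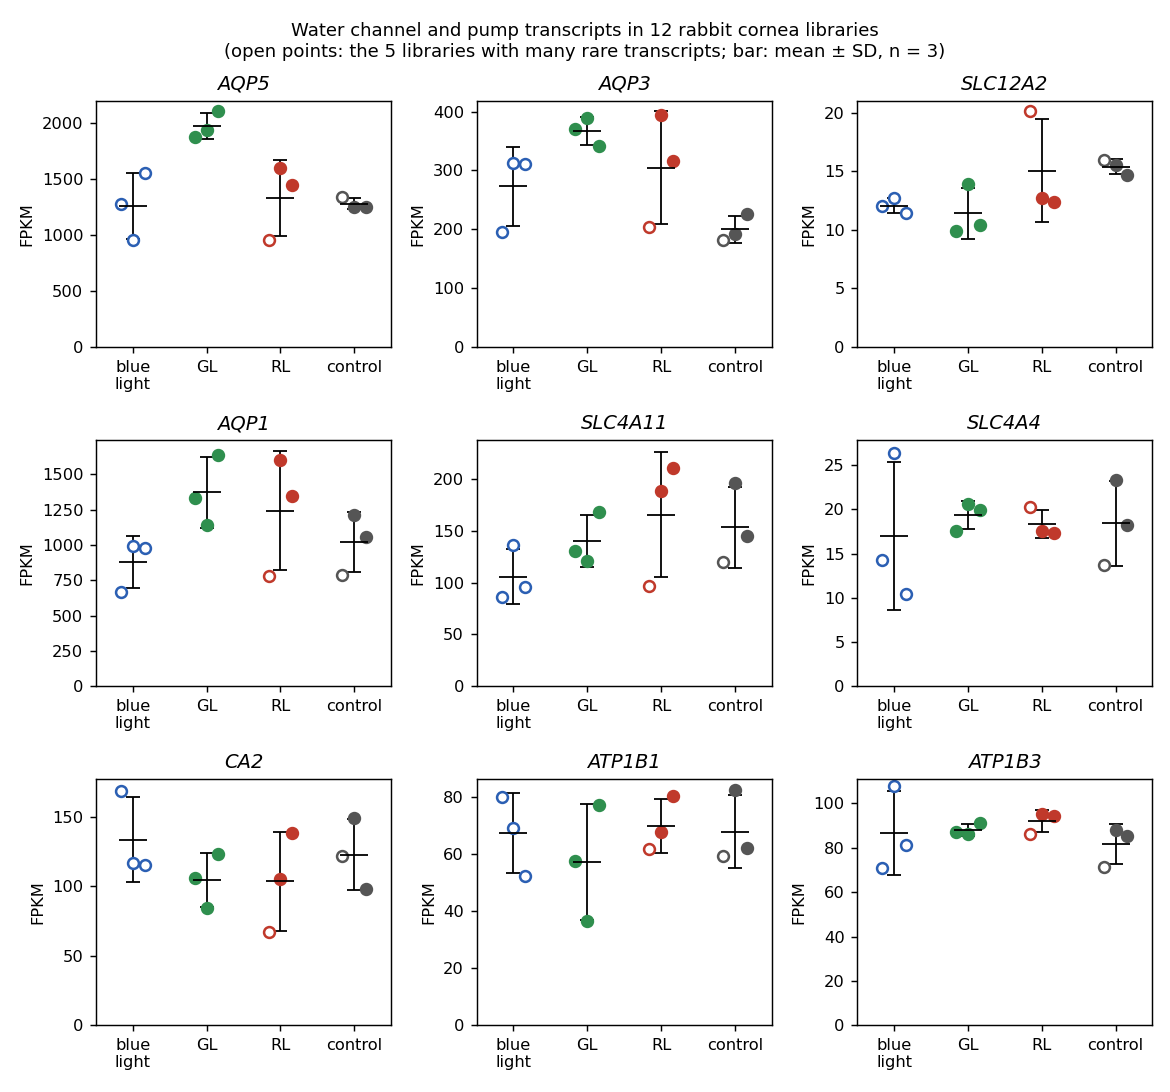
FPKM of the 9 genes in each library (points, n = 3 per group) with the group mean and SD (bars), in panels with separate axes from 0. Open points are the 5 libraries with many genes at counts of 1 to 20. The 3 GL libraries stand above the 3 controls for AQP5 (1878 to 2108 FPKM against 1249 to 1336) and AQP3 (342 to 389 against 181 to 226).

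None of the 9 genes passed edgeR's test in any comparison. In the quasi-likelihood test at a Benjamini-Hochberg adjusted p below 0.05, 0 of 9 were called in blue_light against control, where 0.0165% of all genes tested were called. In GL against control 0 of 9 were called, beside 0.055% of all genes, and in RL against control 0 of 9, beside 0.011%. Between light groups 0 of 9 were called in blue_light against GL, blue_light against RL and GL against RL, beside 0.0495%, 0.011% and 0.0715% of all genes. A test for any difference among the 4 groups also called 0 of 9, beside 0.0605%. At an unadjusted p below 0.05, AQP3 and AQP5 passed in that last test (edgeR adjusted p = 0.599 and 0.605), as did 7.79% of all genes. At that level 0 of 9 passed in blue_light, 2 (AQP3, AQP5) in GL and 1 (AQP3) in RL against control, beside 3.26%, 8.1% and 4.74% of all genes. AQP1 and AQP5 passed in blue_light against GL, SLC4A11 in blue_light against RL and AQP5 in GL against RL, beside 14.9%, 5.14% and 8.6%. DESeq2 called 1 of 9, AQP3, in GL against control, beside 1.02% of all genes to which it gave an adjusted p. It called 0 of 9 in blue_light and in RL against control, beside 0.189% and 0.465% of genes. In blue_light against GL, blue_light against RL and GL against RL it called 0 of 9, beside 2.43%, 0.486% and 1.21%, and for any difference among the 4 groups 0 of 9, beside 1.81%. The 3 comparisons with control share the same 3 control libraries.

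AQP5, the apical water channel of the corneal epithelium, was highest under GL. It stood at 1275, 955 and 1551 FPKM in blue_light, 1878, 1941 and 2108 in GL, 952, 1600 and 1444 in RL, and 1336, 1249 and 1255 in control. Every GL library lay above every library of the other 3 groups, and the controls were the tightest group. Group means were 1260 ± 298 in blue_light, 1976 ± 119 in GL, 1332 ± 338 in RL and 1280 ± 48.9 FPKM in control (SD, n = 3 each). The GL minus control difference was 0.68 ± 0.22 on the log2 scale (SE; 95% interval 0.19 to 1.16), a fold of 1.600, with an edgeR adjusted p = 0.538. With log2 library size in the fit that difference was 0.31 (adjusted p = 0.895), and over all alternatives the adjusted p ran from 0.1055 to 0.973. The blue_light minus control difference was -0.03 (interval -0.51 to 0.46) and the RL minus control difference 0.13 (interval -0.35 to 0.61).

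AQP3, a water and glycerol channel of the epithelial cells, averaged above the controls in all 3 light groups. It stood at 195, 312 and 311 FPKM in blue_light, 370, 389 and 342 in GL, 204, 394 and 315 in RL, and 181, 192 and 226 in control. The GL libraries did not overlap the controls, while blue_light and RL each had 1 library among them, blue_light replicate 1 and RL replicate 1. Means were 273 ± 67.7, 367 ± 23.9 and 305 ± 95.8 FPKM in blue_light, GL and RL, and 199.6 ± 23.5 in control (SD, n = 3 each). The GL minus control difference was 0.93 ± 0.26 (log2, SE; interval 0.37 to 1.48), a fold of 1.90, with an edgeR adjusted p = 0.448. DESeq2 put its adjusted p at 0.0473, the lowest over the alternatives, which reached up to 0.973. With log2 library size in the fit the log2 difference was 0.47. The RL minus control difference was 0.68 ± 0.25 (interval 0.13 to 1.24; edgeR adjusted p = 1), and it was 0.44 without RL replicate 2. The blue_light minus control difference was 0.45 ± 0.25 (interval -0.10 to 1.003), and with a term for the set of 5 libraries in the fit it was 0.81.

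Averaged over each list on the log2 scale, markers of the epithelium and of keratocytes were also higher under GL. In a bulk sample more cells of a type and more RNA per cell cannot be told apart. The mean log2 CPM (counts per M) of the 18 epithelial markers was 8.91 to 9.06 in GL, against 8.62 to 8.71 in control. For the 13 keratocyte markers it was 11.38 to 11.47 in GL, against 11.06 to 11.15 in control. The summed FPKM of the keratocyte markers, however, overlapped, at 25265 to 25510 in GL and 20365 to 26321 in control. Of the epithelial markers 15 of 18 were higher and 0 of 18 were called in that comparison, and of the keratocyte markers 10 of 13 were higher and 0 were called. In RL the epithelial mean was 8.75 to 9.30, above the controls too, with 18 of 18 markers higher and 0 called, and the keratocyte mean was 11.07 to 11.59. The median log2 difference of the epithelial markers was 0.35 in GL and 0.45 in RL, and of the keratocyte markers 0.13 and 0.28. Over all genes it was -0.02 in GL and 0.00 in RL, and the share of all genes that were higher was not computed. Of all genes, edgeR called 0.055% in GL and 0.011% in RL against control. At an unadjusted edgeR p below 0.05, 0 of 18 epithelial markers passed in GL and 5 of 18 in RL, beside 8.1% and 4.74% of all genes. Set against the mean of the epithelial markers in the same library, log2 AQP3 was 0.24 ± 0.20 in blue_light, 0.47 ± 0.02 in GL and 0.04 ± 0.28 in RL, and -0.16 ± 0.18 in control. The blue_light and GL libraries did not overlap the controls, and those of RL did. Log2 AQP5 set against the same markers was 3.18 ± 0.16 in GL and 2.80 ± 0.05 in control, again with no overlap. In RL, by contrast, log2 AQP5 against these markers was 2.47 ± 0.17, below every control. SLC12A2 in blue_light and GL, SLC4A11 in blue_light and CA2 in RL also lay below every control against these markers. Against the keratocyte markers, log2 AQP3 was -2.08 in blue_light, -1.99 in GL and -2.60 in control, with no overlap. AQP5 in GL lay above the controls there too, and SLC12A2 in GL below them. The mean log2 CPM of the corneal endothelial markers overlapped, at 6.75 to 7.01 in GL and 6.62 to 6.94 in control. Against these endothelial markers, log2 AQP1 was 4.08 ± 0.15 in GL and 3.68 ± 0.29 in control, with no overlap. AQP3 and AQP5 in GL also lay above every control against them, and SLC12A2 in blue_light below. All other values against the endothelial markers overlapped the controls. No share over all genes was computed for these differences.

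SLC12A2, which loads chloride into epithelial cells from the stromal side, was among the lowest of the 9 genes. It stood at 12.0, 12.7 and 11.4 FPKM in blue_light, 9.91, 13.9 and 10.4 in GL, 20.2, 12.7 and 12.4 in RL, and 15.98, 15.5 and 14.7 in control. All blue_light and all GL libraries lay below all 3 controls, and RL replicate 1 was the highest of the 12. The log2 difference from control was -0.36 ± 0.20 in blue_light (interval -0.78 to 0.07) and -0.38 ± 0.20 in GL (interval -0.80 to 0.04), with edgeR adjusted p = 1 and 0.613. With a term for the set of 5 libraries the blue_light difference was -0.59, and with log2 library size in the fit the GL difference was -0.16. A second entry annotated as SLC12A2 without a symbol of its own averaged 0.802 FPKM, so the split of reads between both entries is uncertain.

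Groups that do not overlap were common among all genes. In GL against control, 7.67% of all genes tested were higher and 10.8% lower with no overlap in FPKM, beside 2 of 9 higher (AQP3 and AQP5) and 1 of 9 lower (SLC12A2). In blue_light against control, 4.74% were higher and 4.3% lower, beside 0 of 9 and 1 of 9 (SLC12A2). In RL against control, 2.65% and 6.16% were higher and lower, beside 0 of 9 in either direction. The median log2 difference of the 9 genes was -0.03 in blue_light, 0.12 in GL and 0.13 in RL, each minus control, and over all genes it was 0.01, -0.02 and 0.00. The median size of the difference was 0.12, 0.20 and 0.18 for the 9 genes in these 3 comparisons, against 0.25, 0.32 and 0.25 for all genes.

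**Figure D2:**
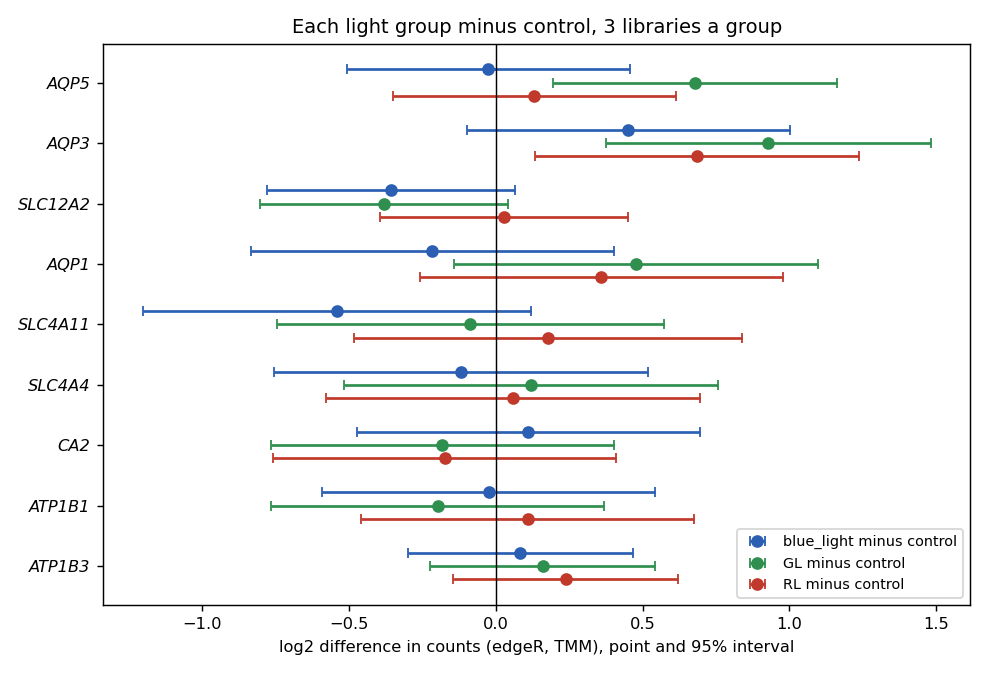
Log2 difference in counts of each light group minus control for the 9 genes (points), with 95% intervals (bars) from the edgeR fit of 12 libraries; the line marks no difference. The intervals for AQP5 and AQP3 in GL (0.19 to 1.16 and 0.37 to 1.48) and for AQP3 in RL (0.13 to 1.24) lie above 0, and none of these passed adjustment over all genes in edgeR.

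AQP1, the water channel of the endothelium and the keratocytes, ranged widely within every group. It stood at 664, 995 and 978 FPKM in blue_light, 1334, 1143 and 1636 in GL, 782, 1602 and 1346 in RL, and 789, 1214 and 1055 in control. Replicate 1 was the lowest library in blue_light, RL and control alike, and the light groups all overlapped the controls. Means were 879 ± 186, 1371 ± 249 and 1244 ± 419 FPKM in blue_light, GL and RL, and 1019 ± 214 in control (SD, n = 3 each). The log2 difference from control was -0.22 ± 0.29 in blue_light, 0.48 ± 0.29 in GL and 0.36 ± 0.29 in RL, with edgeR adjusted p = 1, 0.639 and 1. With log2 library size in the fit, the GL difference was -0.11 and the RL difference -0.00075, and with a term for the set of 5 libraries the blue_light difference was 0.31.

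SLC4A11, a membrane transporter of the corneal endothelium whose human gene is mutated in endothelial dystrophies, was lowest on average in blue_light. It stood at 85.9, 136.2 and 95.6 FPKM in blue_light, 131, 121 and 168 in GL, 96.9, 189 and 211 in RL, and 119.6, 197 and 145 in control. Its 3 lowest libraries were blue_light replicates 1 and 3 and RL replicate 1, and every light group overlapped the controls. The blue_light minus control difference was -0.54 ± 0.31 (log2, SE; interval -1.20 to 0.12; edgeR adjusted p = 1), and it was 0.02 once a term for the set of 5 libraries was in the fit. The differences in GL and RL were -0.09 (interval -0.75 to 0.57) and 0.18 (interval -0.48 to 0.84). With log2 library size in the fit they were -0.61 in GL and -0.15 in RL, and with the term for the set of 5 libraries the GL difference was -0.34.

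SLC4A4, the sodium bicarbonate cotransporter NBCe1 of the endothelium, averaged 17.0 ± 8.35 FPKM in blue_light, 19.4 ± 1.60 in GL, 18.4 ± 1.59 in RL and 18.4 ± 4.78 in control. The blue_light libraries alone spanned 10.4 to 26.4 FPKM, the lowest and the highest of all 12. Its log2 differences from control lay between -0.12 and 0.12, with intervals that reached from -0.76 to 0.76. CA2, which interconverts carbon dioxide and bicarbonate, averaged 134 ± 30.5 FPKM in blue_light, 105 ± 19.2 in GL, 104 ± 35.8 in RL and 123 ± 25.5 in control. All 3 light groups overlapped the controls. Its log2 differences from control were 0.11, -0.18 and -0.17 in blue_light, GL and RL, and changes beyond about 0.77 lay outside all 3 intervals. With log2 library size in the fit the GL and RL differences were -0.45 and -0.34, and with the term for the set of 5 libraries the blue_light difference was 0.41.

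The beta subunits help bring the sodium pump to the cell membrane. ATP1B3 averaged 86.6 ± 19.0 FPKM in blue_light, 88.1 ± 2.63 in GL, 91.9 ± 4.85 in RL and 81.7 ± 8.95 in control. ATP1B1 averaged 67.2 ± 14.0, 57.2 ± 20.4 and 69.9 ± 9.45 FPKM in blue_light, GL and RL, and 67.9 ± 12.7 in control. Every light group overlapped the controls for both. The narrowest intervals of the 9 genes were those of ATP1B3, with log2 differences of 0.08 (interval -0.30 to 0.47), 0.16 (interval -0.22 to 0.54) and 0.24 (interval -0.15 to 0.62) in blue_light, GL and RL. For ATP1B1 they were -0.02, -0.20 and 0.11. The ATP1B1 gene overlaps NME7 on the other strand, which averaged 3.95 FPKM, and since strand use in counting is not stated their reads cannot be told apart.

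Between the light groups, blue_light and GL did not overlap in FPKM for the 3 water channels, none of which edgeR called. In blue_light against GL, AQP5, AQP1 and AQP3 were lower with no overlap, 3 of 9 beside 10.5% of all genes, and 0 of 9 were higher beside 16.5%. Their log2 differences were -0.70 ± 0.22, -0.69 ± 0.29 and -0.48 ± 0.25 (SE), with edgeR adjusted p = 0.255, 0.298 and 0.377. All blue_light libraries belong to the set of 5 and no GL library does. With a term for that set in the fit, which rests on RL and control, the differences were -0.38 ± 0.30 for AQP5, 0.07 ± 0.30 for AQP1 and 0.06 ± 0.31 for AQP3 (SE). In GL against RL, AQP5 was higher with no overlap, 1 of 9 beside 7.9% of all genes, with a log2 difference of 0.55 ± 0.22 (edgeR adjusted p = 0.565), and 0 of 9 were lower beside 5.53%. In blue_light against RL, 0 of 9 were separate in either direction, beside 7.02% higher and 2.34% lower among all genes. SLC4A11 had the widest gap there, at -0.72 ± 0.31 (edgeR adjusted p = 0.930).

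Ratios within a library do not depend on its depth or scaling. AQP5 over AQP3 was 4.86 ± 1.75 in blue_light, 5.41 ± 0.658 in GL and 4.44 ± 0.332 in RL, against 6.48 ± 0.916 in control (SD, n = 3 each). The RL ratios, 4.06 to 4.67, lay below all 3 controls, 5.55 to 7.38. AQP3 over AQP1 was 0.308 ± 0.0136 in blue_light, 0.276 ± 0.0658 in GL and 0.247 ± 0.0131 in RL, against 0.201 ± 0.0376 in control. Here blue_light and RL lay above all controls and GL overlapped them. SLC4A11 over AQP1 was 0.121 ± 0.0207 in blue_light, 0.102 ± 0.00393 in GL and 0.133 ± 0.0210 in RL, against 0.150 ± 0.0124 in control. The GL ratios, 0.0979 to 0.106, and the blue_light ratios, 0.0978 to 0.137, lay below the controls, 0.137 to 0.162, blue_light by a narrow margin. Other ratios, AQP1 over AQP5, SLC4A11 over SLC4A4, ATP1B3 over ATP1B1 and CA2 over SLC4A4, overlapped the controls in every light group. These ratios are given without a test, and no share over other pairs of genes was computed to set beside them. All blue_light libraries belong to the set of 5, and a ratio removes that set only where its term is equal for both genes. That term was -0.76 for AQP1, -0.54 for AQP3 and -0.82 for SLC4A11 (log2), and its part in the ratios was not tested.

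**Figure D3:**
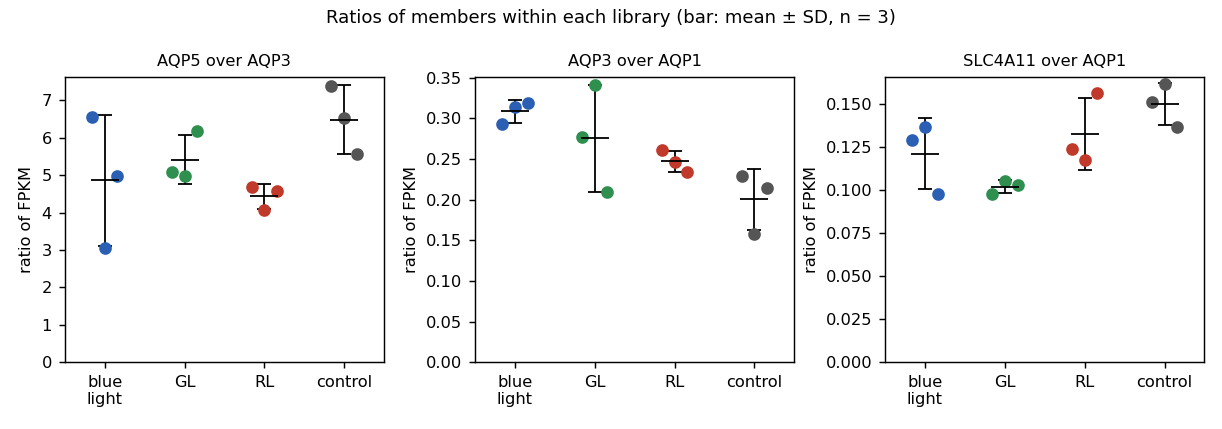
Ratios of FPKM within each library (points, n = 3 per group) with group mean and SD (bars), on axes from 0: AQP5 over AQP3, AQP3 over AQP1 and SLC4A11 over AQP1. The 3 RL libraries lie below the controls for AQP5 over AQP3 (4.06 to 4.67 against 5.55 to 7.38), and the 3 GL libraries for SLC4A11 over AQP1 (0.0979 to 0.106 against 0.137 to 0.162).

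AQP1 separated the set of 5 libraries from the other 7. It stood at 664 to 995 FPKM in the 5 libraries with many rare transcripts and at 1055 to 1636 in the other 7, with no overlap, as was the case in the same direction for 1.54% of all genes tested. Within the control group it was 789 FPKM in the library of that set and 1214 and 1055 in the others. Within RL it was 782 FPKM in the library of that set and 1602 and 1346 in the others. With the 4 groups in the same fit, the term for the set was -0.76 ± 0.23 for AQP1, -0.82 ± 0.25 for SLC4A11 and -0.54 ± 0.23 for AQP3 (log2, SE), with unadjusted p = 0.00592, 0.00626 and 0.0378 and edgeR adjusted p = 0.120, 0.123 and 0.230. At an unadjusted p below 0.05 that term passed for 19.1% of all genes, and 1 gene was called. Of the other 6 genes, 5 had negative terms and SLC12A2 a positive one, at 0.34 ± 0.18. The set was defined from the counts of rare genes, and the labels do not name it.

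**Figure D4:**
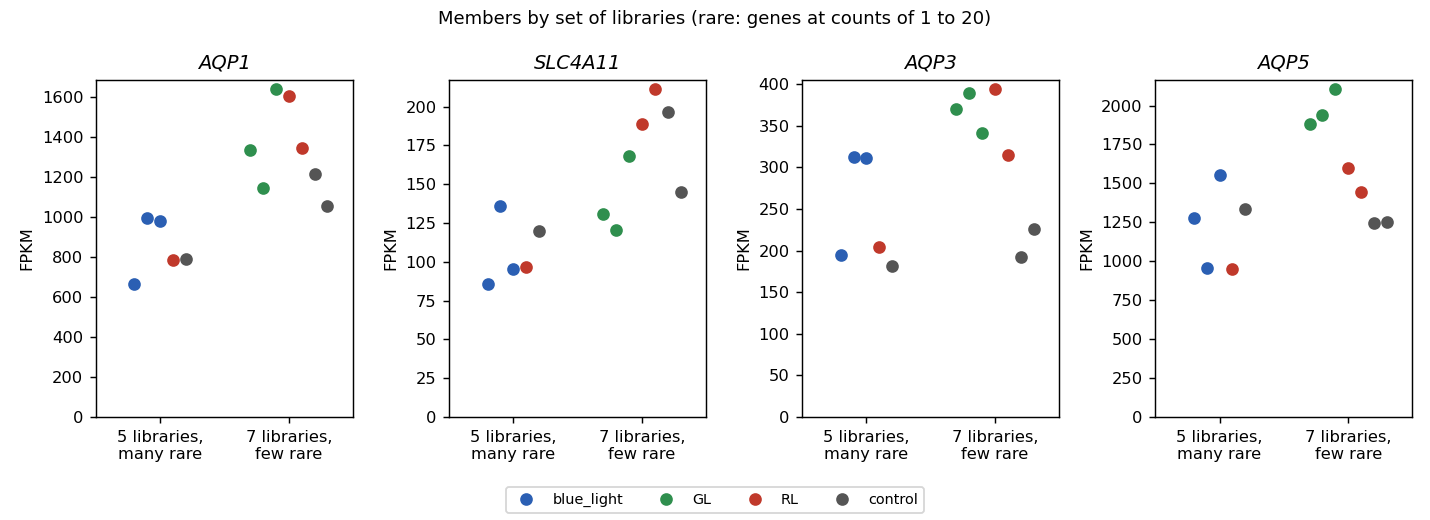
FPKM of AQP1, SLC4A11, AQP3 and AQP5 (1 point per library, coloured by group, axes from 0) in the 5 libraries with many genes at counts of 1 to 20 and in the other 7. AQP1 does not overlap between the sets (664 to 995 against 1055 to 1636 FPKM), while the other 3 genes do.

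Some of the 9 genes varied from library to library with markers of the corneal layers, and the lists do not separate these layers fully. Over 12 libraries each gene was compared with the mean log2 CPM of the epithelial, keratocyte and corneal endothelial markers, 27 relations in all. Tests were two-sided by permutation over all 12 libraries, with Benjamini-Hochberg adjustment over these 27. The 4 groups were pooled without a group term, so differences between groups enter these r and p-values. AQP3 varied with the epithelial markers (r = 0.81, p = 0.00146, adjusted 0.0242; rho = 0.85, p = 0.00126, adjusted 0.0193). Without the 2 libraries farthest from the median r was 0.86, and within the 7 libraries with few rare transcripts 0.80. AQP3 varied as closely with the keratocyte markers (r = 0.75, p = 0.00179, adjusted 0.0242; rho = 0.83, p = 0.00143, adjusted 0.0193; r = 0.73 without 2 libraries and 0.77 within the 7). These lists are not independent of each other: the epithelial and keratocyte means had r = 0.63 between them.

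AQP1 varied with the same lists. Its r was 0.74 with the epithelial markers (p = 0.00573, adjusted 0.0309; rho = 0.66, p = 0.0239, adjusted 0.0923) and 0.75 with the keratocyte markers (p = 0.00359, adjusted 0.0309; rho = 0.60, p = 0.0427, adjusted 0.115). Within the 7 libraries these were 0.55 and 0.56, and the keratocyte relation rests in part on 2 libraries, without which r was 0.47. With the endothelial markers AQP1 had r = 0.58 (p = 0.0488, adjusted 0.133; rho = 0.64, p = 0.0278, adjusted 0.0939), and 0.52 within the 7. ATP1B3 had r = 0.74 with the epithelial markers (p = 0.00571, adjusted 0.0309; rho = 0.69, p = 0.0156, adjusted 0.0923), 0.60 without 2 libraries and 0.78 within the 7. By rank it varied as closely with the endothelial markers (rho = 0.69, p = 0.0170, adjusted 0.0923), where r was 0.43 (p = 0.157, adjusted 0.283).

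AQP5, although epithelial by its known site, had r = 0.44 with the epithelial markers (p = 0.147, adjusted 0.283; rho = 0.48, p = 0.115, adjusted 0.209). Its r with the keratocyte markers was 0.60 (p = 0.0363, adjusted 0.123; rho = 0.66, p = 0.0238, adjusted 0.0923), 0.78 without 2 libraries and 0.75 within the 7. Among the endothelial genes SLC4A11 had the highest r with the endothelial markers, 0.69 (p = 0.0136, adjusted 0.0614; rho = 0.68, p = 0.0181, adjusted 0.0923), which missed the threshold after adjustment. It was 0.62 without 2 libraries and 0.55 within the 7. With the epithelial markers SLC4A11 had a similar r, 0.65 (p = 0.0220, adjusted 0.0849; rho = 0.49, p = 0.110, adjusted 0.209), which was 0.32 without 2 libraries and 0.29 within the 7. CA2 had r = 0.57 with the endothelial markers (p = 0.0492, adjusted 0.133; rho = 0.48, p = 0.116, adjusted 0.209) and 0.77 within the 7 libraries, against -0.15 with the epithelial and -0.42 with the keratocyte markers. ATP1B1 and SLC4A4 had r = 0.54 and 0.52 with the endothelial markers (p = 0.0656 and 0.0794, adjusted 0.148 and 0.165; rho = 0.54 and 0.61, p = 0.0755 and 0.0396, adjusted 0.170 and 0.115). SLC12A2 had r between -0.29 and -0.11 with the 3 lists.

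**Figure D5:**
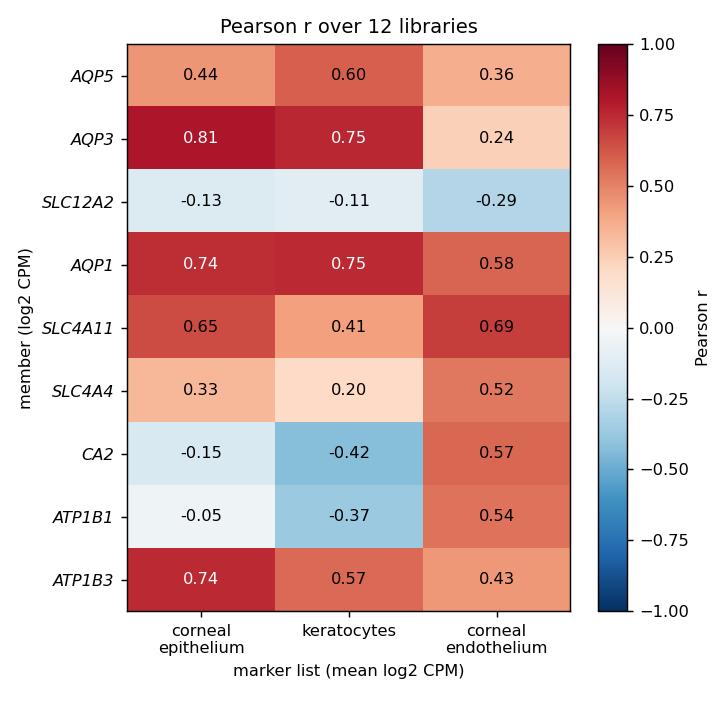
Pearson r over 12 libraries between the log2 CPM of each of the 9 genes (rows) and the mean log2 CPM of 3 marker lists (columns), on a colour scale from -1 to 1. AQP3, AQP1 and ATP1B3 have their highest values with the epithelial or keratocyte markers (0.74 to 0.81), and SLC4A11, CA2, ATP1B1 and SLC4A4 with the endothelial markers (0.52 to 0.69). AQP1 also has 0.58 with the endothelial markers, SLC4A11 0.65 with the epithelial and AQP5 0.60 with the keratocyte markers.

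Among the 36 pairs of the 9 genes, AQP1 and SLC4A11 varied most closely together (r = 0.83, p = 0.00106, adjusted 0.0382; rho = 0.85, p = 0.00094, adjusted 0.0338, two-sided permutation tests adjusted over the 36 pairs). Both were low in the 5 libraries with many rare transcripts. Their r was 0.72 without the 2 libraries farthest from the median and 0.52 within the other 7 libraries. No other pair passed after adjustment, and AQP1 and AQP3 came next with r = 0.76 (p = 0.00537, adjusted 0.0753; rho = 0.78, p = 0.00419, adjusted 0.0503).

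For each gene the 3 genes with the most similar pattern were taken from 9978 named genes with a mean of at least 5 CPM, by Pearson r of log2 CPM over 12 libraries. For AQP5 these were BCAR1 (r = 0.97), FYCO1 (0.96) and PEBP1 (0.95). For AQP3 they were PHLDA3 (0.94), PELO (0.92) and EFNB1 (0.92), and for AQP1 RRAGA (0.97), MAN1C1 (0.97) and RRBP1 (0.96). SLC4A11 was most like CHCHD3 (0.95), IGFBP5 (0.93) and RPS16 (0.92). CA2 was most like COL4A5 (0.92), a collagen chain of basement membranes, then FAM96A (0.90) and PPM1E (0.89). ATP1B3 was most like CTBP2 (0.94), HSD17B4 (0.87) and NUTF2 (0.87), and ATP1B1 most like PET100 (0.89), CDK17 (0.89) and ARHGEF3 (0.88). SLC4A4 was most like LIX1 (0.88), SH3GL2 (0.82) and PPP2R2B (0.79). SLC12A2 was most like CLMP (0.89), DOCK11 (0.82) and TUBGCP5 (0.81). These values are the highest of 9978 over 12 points and are given as a description.

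AQP5, AQP3 and AQP1 made up nearly all aquaporin transcript. Of the summed FPKM of 12 aquaporin genes listed, they held 98.9% to 99.9% in 11 libraries and 90.6% in blue_light replicate 1. In that library MIP, the aquaporin of lens fibre cells, stood at 216 FPKM, beside a lens marker sum of 17397 FPKM. AQP2, AQP11 and AQP4 averaged 1.96, 1.11 and 0.462 FPKM, AQP9 was listed at 0 in all 12 libraries, and AQP6, AQP7, AQP8 and AQP10 averaged below 0.05. AQP5 lies between AQP2 and AQP6 in a cluster on rabbit chromosome 4, from 34128373 to 34132246 on the plus strand, with AQP2 3172 bp to the left and AQP6 5190 bp to the right. The members of this cluster thus averaged 1.96 FPKM for AQP2, 1462 for AQP5 and 0.0105 for AQP6. AQP3 lies on chromosome 1 from 20023454 to 20029209, with AQP7 37995 bp to its right at a mean of 0.00548 FPKM. CA2 lies on chromosome 3 from 101101607 to 101118201, with CA3 13968 bp to its left. The coordinates and chromosome numbers are those of the deposited table, whose rabbit build is not named in the sources used here. For all of the 9 genes but AQP3, a RefSeq gene table gave another chromosome number.

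AQP1 lies on chromosome 10 from 15211381 to 15221822, between FAM188B and GHRHR. SLC4A11 lies on chromosome 4 from 10161910 to 10173328 and SLC4A4 on chromosome 15 from 78487707 to 78813568, both on the minus strand. ATP1B1 lies on chromosome 13 from 23871538 to 23892960 on the minus strand, ATP1B3 on chromosome 14 from 35322228 to 35377736, and SLC12A2 on chromosome 3 from 11738449 to 11831481.

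The wider transport machinery held no gene called by edgeR. Of 113 further symbols in 7 lists of aquaporins, pump subunits, bicarbonate and proton transporters, carbonic anhydrases, lactate transporters, cation chloride cotransporters and channels, 104 were listed and 77 tested. In each of the 3 comparisons with control 0 of 77 were called by edgeR, and 2, 5 and 3 of 77 had an unadjusted p below 0.05 in blue_light, GL and RL, which is 2.60%, 6.49% and 3.90% beside 3.26%, 8.1% and 4.74% of all genes. In GL against control 8 of 77 (10.4%) were lower with no overlap and 0 of 77 higher, beside 10.8% and 7.67% of all genes. In blue_light against control 4 (5.19%) were lower and 2 (2.60%) higher, beside 4.3% and 4.74%, and in RL against control 4 (5.19%) were lower and 0 higher, beside 6.16% and 2.65%. DESeq2, run without a filter on 93 of them, gave an adjusted p to 73 to 83 in each comparison. It called CA11 and CA12 in GL against control and 0 in blue_light or RL against control. Between light groups it called CA11, FXYD6 and SLC16A3 in blue_light against GL, 0 in blue_light against RL, and AQP2 and CA11 in GL against RL, and for any difference among the 4 groups CA11. The shares of all genes that DESeq2 called are those given above for the 9 genes. The median log2 difference of the 77 was -0.06, -0.09 and 0.04 in blue_light, GL and RL.

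The sodium pump regulators FXYD3 and FXYD6 averaged 199.9 and 41.7 FPKM. In the list of pump subunits and regulators 0 of 8 tested genes were called in any comparison with control. SLC4A2, a chloride-bicarbonate exchanger, averaged 23.1 FPKM and SLC4A5 12.4, and 0 of 18 of their list were called. SLC16A1, the lactate transporter MCT1, averaged 100.1 FPKM, SLC16A3 2.20 and EMB 0.232, with 0 of 4 called. BSG, the chaperone of MCT1, was listed at a mean of only 0.0338 FPKM, below the filter.

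Of the cation chloride cotransporters and their kinases, SLC12A4 averaged 32.7 FPKM and OXSR1 18.4, with 0 of 12 called. SLC12A4 was lower with no overlap in GL, at 28.1 FPKM against 35.3 in control (log2 -0.28 ± 0.17, edgeR adjusted p = 0.636). Of the channels, LRRC8A, a subunit of the volume-regulated anion channel, averaged 33.1 FPKM, KCNK1 28.4 and CLIC4 27.3, with 0 of 22 called. Of the other aquaporins 0 of 3 were called.

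The carbonic anhydrases other than CA2 were low. CA3 averaged 18.2 FPKM but ranged from 0.908 to 111, and in RL it averaged 3.37 FPKM against 18.5 in control, with no overlap (log2 -2.38 ± 1.08, edgeR adjusted p = 1). CA13 averaged 12.8 FPKM and CA5B 6.34, and 0 of 10 were called in any comparison with control. CA11 was named after its values were seen: it was listed at 0 in all 3 GL libraries and averaged 1.56 ± 0.886 FPKM in control (edgeR adjusted p = 0.259), and both DESeq2 and limma at a pseudocount of 0.1 called it. CA12, named for the same reason, averaged 0.0515 FPKM in GL against 0.932 in control (edgeR adjusted p = 0.522). All GL libraries list few rare genes (767 to 1461, against 1039 to 2561 in control), and the part of that in the CA11 and CA12 values was not tested.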

How the data were processed

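The authors deposited 1 table that holds, per the file headers, estimated counts and FPKM for each gene in each library. No aligner, counter or strand setting is given in the sources used here. The submitters' processing notes name GRCm38 and mm10, a mouse build, whereas the table places genes on rabbit sequences, so the rabbit build is unnamed. Of the symbols that state a rabbit chromosome, 242 of 242 lay on the sequence so numbered, and all 9 genes had the same symbol and identifier in a RefSeq gene table. That RefSeq table gave the same chromosome for AQP3 only. It gave 16 for AQP1, 11 for AQP5 and SLC4A11, 8 for SLC4A4, 7 for ATP1B1, 4 for ATP1B3 and 6 for CA2 and SLC12A2. The reason was not tested. Libraries were made with a SMARTer kit, per the labels' protocols. Counts were whole but low values piled up at steps of about 3.76, estimated over all 12 libraries together. If 1 step stands for 1 fragment, which is inferred and not stated, 40.9 to 64.7 M counts correspond to roughly 10.9 to 17.2 M fragments. The labels name no molecular identifiers, and losses before sequencing enter the errors only as far as they differ between libraries. Zero counts carry an FPKM of 0.0001.

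Of 29076 genes 7628 were at 0 throughout. edgeR 4.0.16 (R 4.3.3) tested 18171 genes with glmQLFit and glmQLFTest, TMM scaling (factors 0.944 to 1.06) and filterByExpr, in 1 fit of 12 libraries with 4 group means. The biological coefficient of variation was 0.578. p-values were adjusted over all genes tested by Benjamini-Hochberg, at 0.05. Intervals are 95% from the fit's degrees of freedom. log2 CPM used a prior count of 2. Correlations used 100000 permutations over all 12 libraries, with the groups pooled. DESeq2 1.42.0, limma 3.58.1 on log2(FPKM + 1) and other filters and scalings were alternatives. Added later, once the data had been seen, were the omission of 3 libraries with retinal transcripts, a term for the set of 5 libraries, the other 7 libraries alone and counts divided by the step. The fits and correlations were tested on simulated data.

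The 9 genes, the 12 marker lists and the 7 transport lists were chosen with earlier results of these data known. Named besides them are the 3 most abundant genes of each list the text discusses and the 3 genes most like each member; some of these are not reported here.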

Additional observations from a re-analysis of the deposited data

How the results depend on the processing

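The log2 differences of the 9 genes from control, and their tests for any difference among the 4 groups, were recomputed under the alternatives; ratios, overlaps and correlations were not, beyond what stands beside them. The 7 libraries alone give no blue_light value and no test of the 4 groups, and fits of only 2 groups give no test of the 4. The AQP3 difference in GL under DESeq2 was the one that passed the threshold (log2 0.93, adjusted p = 0.0473; 0.448 in edgeR). AQP3 stayed above control in all 3 light groups, AQP5 in GL and ATP1B3 in GL and RL, with SLC12A2 below control in blue_light and GL and CA2 in GL, under every alternative that gave these values. The other directions turned under at least 1 alternative. With log2 library size in the fit, AQP1 was at -0.11 in GL and -0.00075 in RL, AQP5 at -0.10 and SLC4A11 at -0.15 in RL, and ATP1B1 at 0.00068 in blue_light. With a term for the set of 5 libraries, blue_light stood at 0.31 for AQP1, 0.18 for AQP5, 0.049 for SLC4A4, 0.020 for SLC4A11 and 0.198 for ATP1B1, and RL at -0.0031 for SLC12A2. Without the 3 libraries with retinal transcripts, blue_light stood at 0.13 for AQP1, 0.23 for SLC4A4 and 0.033 for ATP1B1, and RL at 0.0045 for CA2. In the other 7 libraries alone, SLC4A4 was at -0.059 in GL and -0.17 in RL, CA2 at 0.059 and SLC12A2 at -0.19 in RL. Scaled by library size only, SLC4A4 was at -0.0097 and SLC12A2 at -0.038 in RL. With limma SLC12A2 was at -0.062 in RL (-0.068 at a pseudocount of 0.1, -0.062 with no filter). Leaving out 1 library at a time, the log2 difference in blue_light ran from -0.21 to 0.13 for AQP5, -0.15 to 0.16 for ATP1B1, -0.11 to 0.22 for ATP1B3, -0.069 to 0.29 for CA2 and -0.60 to 0.13 for SLC4A4. In GL it ran from -0.48 to 0.040 for ATP1B1, -0.24 to 0.15 for SLC4A11 and -0.059 to 0.34 for SLC4A4. In RL it ran from -0.034 to 0.34 for AQP5, -0.0061 to 0.29 for ATP1B1, -0.44 to 0.072 for CA2, -0.21 to 0.15 for SLC12A2, -0.033 to 0.46 for SLC4A11 and -0.11 to 0.28 for SLC4A4.

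Counts over all genes moved more. In the order blue_light, GL and RL against control, blue_light against GL and RL, GL against RL and any difference, edgeR called 3, 10, 2, 9, 2, 13 and 11 genes and DESeq2 36, 183, 85, 435, 87, 225 and 310. Without the 3 retinal libraries edgeR called 1, 1, 2, 0, 1, 2 and 0, and at the counts of 0 there were 609 and 426 genes at an unadjusted p below 0.05. Leaving out 1 library at a time, the ranges were 2 to 10, 3 to 21, 2 to 9, 3 to 22, 2 to 5, 5 to 25 and 5 to 25. In fits of only the groups compared, 7, 28 and 5 genes were called against control and 3 in GL against RL. The 7 libraries alone gave 5 in GL and 9 in RL against control and 8 in GL against RL. Library size as a covariate gave 5 in GL against control, 2 in blue_light against GL and 6 for any difference. The set term gave 0 in blue_light against GL by edgeR (1264 at an unadjusted p below 0.05). Without a filter 5 genes were called in blue_light against RL and 22 for any difference, with a mean FPKM of at least 1 there were 14 in blue_light against GL, and step-divided counts gave 4 in blue_light against RL. Limma on log2(FPKM + 1) called 18 in blue_light against GL, 6 in blue_light against RL and 20 for any difference. With a pseudocount of 0.1 it called 5 in blue_light and 6 in RL against control, 15 in blue_light against GL, 7 in blue_light against RL and 21 for any difference. Without its filter it called 6 in GL against control and 6 in blue_light against RL. The causes were not tested. The labels state no pairing by replicate number. Deviations of same-numbered libraries of different groups had a median r of 0.0125 (from -0.0738 to 0.235). For libraries with other numbers it was -0.00275 (from -0.161 to 0.133). Such correlations over all genes cannot exclude a pairing. With replicate block, 2, 11, 3, 9, 2, 9 and 11 genes were called in the order above, and 0 of the 9 genes.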
